A study of Homo sapiens with 12 samples.

Results

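The 10 tetraspanins described here were TSPAN10, TSPAN3, TSPAN4, TSPAN9, TSPAN14, CD9, CD63, CD81, CD82 and CD151, taken by their symbols from the 12616 genes of a normalised count table. All 10 were listed. TSPAN10 was chosen by its fall with doxycycline (Dox), which was already known, so its Dox changes are given as a description with no test. The list was drawn up with earlier results of these data in view, so counts over the other 9 members describe these genes and are not independent evidence about the family. The RNA came from MeWo and SkMel28, established human cutaneous melanoma lines in which Dox switches on a hairpin RNA directed at MITF, the transcription factor that governs melanocyte identity. Each line was grown for 8 days with 0 µg/ml Dox (the MeWo control and SkMel28 control groups) or 1 µg/ml Dox (MeWo Dox and SkMel28 Dox), with 3 libraries in each of the 4 groups and 12 in all. The control groups carried the same hairpin, uninduced. No group received Dox without this hairpin, so the drug and the knockdown cannot be told apart. Nothing in the labels says that the replicates of a group were separate cultures, and p-values measure the spread between these libraries.

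Tetraspanins are small membrane proteins that cross the bilayer with 4 helices and gather other proteins, among them integrins, immunoglobulin superfamily proteins and membrane proteases, into microdomains of the plasma membrane and endosomes. TSPAN10 and TSPAN14 belong to the TspanC8 group, which escorts the protease ADAM10 out of the endoplasmic reticulum and sets where and on what it acts. CD63 marks late endosomes, lysosomes and exosomes, and in pigment cells it takes part in sorting PMEL, the protein of melanosome fibrils, in early melanosomes. MITF binds E-box letters, and the extended form of its site is known as the M-box.

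The promoter letters are shown for TSPAN10, the member with the deepest fall, for CD63, the most abundant member, and for CD9, the member that rose. RefSeq windows on GRCh38.p14, from 250 bases before to 50 bases after an annotated start site, were at hand for 6 of the 10 members, in 22 windows. Each window was searched on both strands for TCACATGA (the M-box, TCATGTGA on the other strand), for CACATG, which lies inside it, and for the palindrome CACGTG. Capitals mark these letters. The TSPAN10 window is chr17:81642055-81642354 on the plus strand, the CD63 window is chr12:55728960-55729259 on the minus strand, and the CD9 window is chr12:6200150-6200449 on the plus strand.
TSPAN10: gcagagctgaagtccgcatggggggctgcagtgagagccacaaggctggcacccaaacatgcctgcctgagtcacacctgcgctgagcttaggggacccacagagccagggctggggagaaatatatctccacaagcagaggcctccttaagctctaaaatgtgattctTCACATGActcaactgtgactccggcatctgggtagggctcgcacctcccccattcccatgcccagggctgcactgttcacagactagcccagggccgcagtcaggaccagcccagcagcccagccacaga
CD63: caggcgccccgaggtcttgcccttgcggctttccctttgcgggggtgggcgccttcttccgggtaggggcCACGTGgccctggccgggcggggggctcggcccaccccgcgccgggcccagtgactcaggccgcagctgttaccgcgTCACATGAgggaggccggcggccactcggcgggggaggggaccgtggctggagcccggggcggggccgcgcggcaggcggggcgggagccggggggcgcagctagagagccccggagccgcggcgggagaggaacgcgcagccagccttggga
CD9: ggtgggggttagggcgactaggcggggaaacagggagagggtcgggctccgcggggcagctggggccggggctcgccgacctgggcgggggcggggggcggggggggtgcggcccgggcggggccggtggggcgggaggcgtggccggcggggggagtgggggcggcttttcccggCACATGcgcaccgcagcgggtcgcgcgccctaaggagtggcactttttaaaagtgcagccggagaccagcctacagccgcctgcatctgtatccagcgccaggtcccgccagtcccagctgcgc
The TSPAN10 window was the only one at hand for that gene, and its start site lies 5109 bases downstream of the start of the canonical GENCODE 44 transcript. The CD63 and CD9 start sites shown are those of the canonical transcripts. Of 8 CD63 windows the other 7 held none of the letters searched, and 2 of 4 CD9 windows held none. TCACATGA began 81 bases upstream of this TSPAN10 start site and 103 bases upstream of this CD63 start site. It was found in 1.0% of all 35116 windows, and in at least 1 window of 1.23% of the 9527 table genes that had a window. The CD63 window also held CACGTG, 180 bases upstream. CACATG without the flanking letters lay 74 bases upstream of the CD9 start site shown and 119 bases upstream of another CD9 start site. With or without those letters, CACATG was in 11.1% of all windows and in at least 1 window of 10.1% of the same table genes. CACGTG lay 85 bases upstream of a TSPAN4 start site, in 1 of 5 TSPAN4 windows. It was present in 7.26% of all windows and in at least 1 window of 13.0% of these table genes. None of these letters were found in the windows of TSPAN14 and CD82. These matches describe letters in a window, and binding was not measured.

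Libraries held 2568187 to 3714608 reads of the 3′ ends of transcripts, and values are normalised read counts, scaled by the authors to a common library size, for which 1 read was worth 0.278 to 0.389. A gene with 0 reads in a library could therefore have a value of up to 0.835 to 1.17, and these limits cover counting error only. All 8 melanocytic markers were present in every library. Of 11 markers of immune, endothelial, epithelial and fibroblast cells, 10 were not listed and DCN reached at most 9 reads. MITF itself read 656.8, 663.2 and 708.0 in MeWo control and 451.0, 354.4 and 370.9 in MeWo Dox, and 860.6, 739.0 and 792.1 in SkMel28 control and 575.0, 577.5 and 552.4 in SkMel28 Dox. MITF was thus lower in every Dox library than in every control library of its line, with log2 changes of -0.79 and -0.49. MeWo Dox replicate 1 stood apart, with correlations over genes of 0.960 and 0.969 with the other MeWo Dox libraries, which reached 0.976 with each other, and it held the most MITF of the 3. Without it, 31.0% of all genes were called in MeWo in place of 16.7%, so values without it are given beside the MeWo results that it moves most.

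TSPAN10, a TspanC8 tetraspanin, is annotated on hg38 (GENCODE 44) at chr17:81637171-81648754 on the plus strand. Its values were 95.6, 93.2 and 84.2 in MeWo control and 9.89, 24.3 and 12.5 in MeWo Dox. In SkMel28 control they were 106.9, 104.1 and 106.1, and in SkMel28 Dox 25.8, 17.1 and 28.7. In both lines every Dox library lay far below every control library. The mean fell from 91.0 ± 6.01 to 15.6 ± 7.65 (SD, n = 3) in MeWo, 5.85-fold, and from 105.7 ± 1.47 to 23.9 ± 6.08 in SkMel28, 4.43-fold. On the log2(value + 1) scale the changes were -2.57 (SE 0.24, 95% interval -3.07 to -2.06) and -2.13 (SE 0.24, interval -2.64 to -1.63). Without MeWo Dox replicate 1, which had the lowest TSPAN10 and the highest MITF of its group, the MeWo change was -2.31. When only genes reaching 10 on average in one of the groups compared are counted, 11 of 8188 fell further in MeWo and 7 of 8275 in SkMel28. TSPAN10 was chosen by this fall, so its place among genes and the intervals of its Dox changes describe it and are not evidence for it. The MeWo change minus the SkMel28 change was -0.43 (interval -1.15 to 0.28). Without Dox, the 2 lines held about the same TSPAN10, with SkMel28 minus MeWo at 0.22 (interval -0.29 to 0.72, limma adjusted p = 0.472). The annotated span of NPLOC4, on the opposite strand, crosses 565 of the 849 bases of the last TSPAN10 exon. The strand used in counting is not stated. Of these bases 36 are in annotated NPLOC4 exons, and the nearest 3′ end of its 22 annotated transcripts lies 11504 bases outside the TSPAN10 exon. Whether NPLOC4 reads were counted for TSPAN10 was not tested. NPLOC4 changed by -0.14 in MeWo (limma adjusted p = 0.531) and by -0.52 in SkMel28 (adjusted p = 0.0248).

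**Figure D1:**
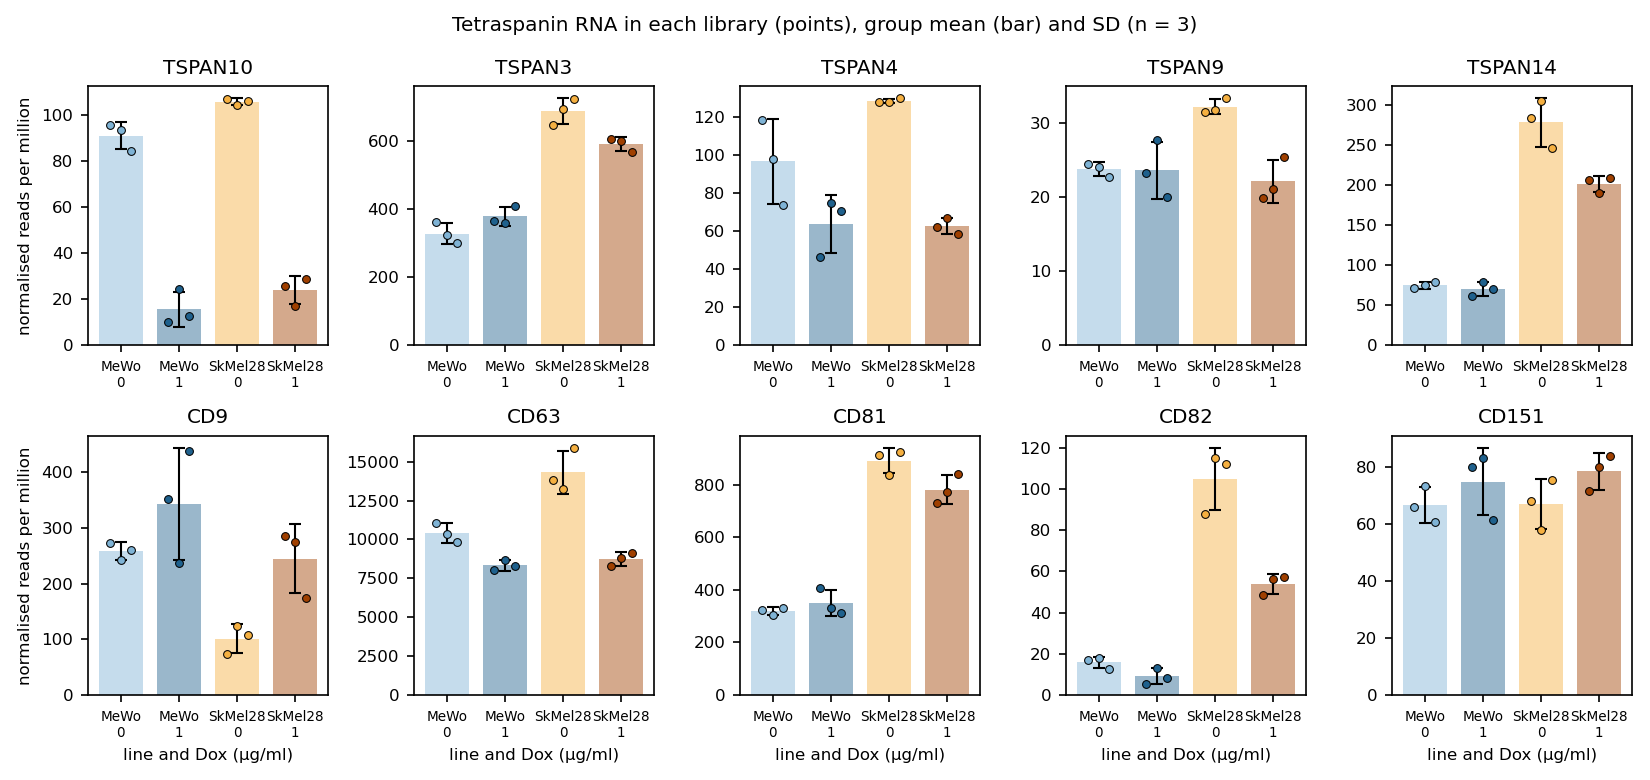
Normalised read counts (linear axes from 0) of each tetraspanin in the 12 libraries, by line and Dox dose in µg/ml. Points are libraries, bars are means and whiskers are SD (n = 3). TSPAN10 lay between 84.2 and 106.9 in the control libraries and between 9.89 and 28.7 in the Dox libraries.

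Among the 9 other members, TSPAN4 and CD82 were lower with Dox in both lines, TSPAN9, TSPAN14 and CD63 were called lower in SkMel28 alone, and CD9 was called higher in SkMel28 alone, although no difference between the lines passed the test for any of them. In MeWo 2 of 9 were called at a limma adjusted p under 0.05, both lower (TSPAN4 and CD82), where 16.7% of all genes were called. In SkMel28 6 of 9 were called, 5 lower (TSPAN4, TSPAN9, TSPAN14, CD63 and CD82) and 1 higher (CD9), where 10.9% of all genes were called. The median log2 change of the 9 was -0.02 in MeWo and -0.46 in SkMel28, beside 0.00 in both lines over all genes. The MeWo count was 0 without MeWo control replicate 1 or without MeWo control replicate 2. It was also 0 with each line fitted alone or without the mean-variance trend, and 1 without MeWo Dox replicate 3. These MeWo settings called 813 to 1689 of all 12616 genes, in place of 2107. The SkMel28 count was 3 without SkMel28 control replicate 2 or without SkMel28 Dox replicate 1, and 4 without any one of SkMel28 control replicate 1, control replicate 3 and Dox replicate 2. These SkMel28 settings called 784 to 1016 of all genes, in place of 1378, so calls became fewer over all genes as well. In bulk RNA, fewer cells that express a gene and less of its RNA per cell cannot be told apart.

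**Figure D2:**
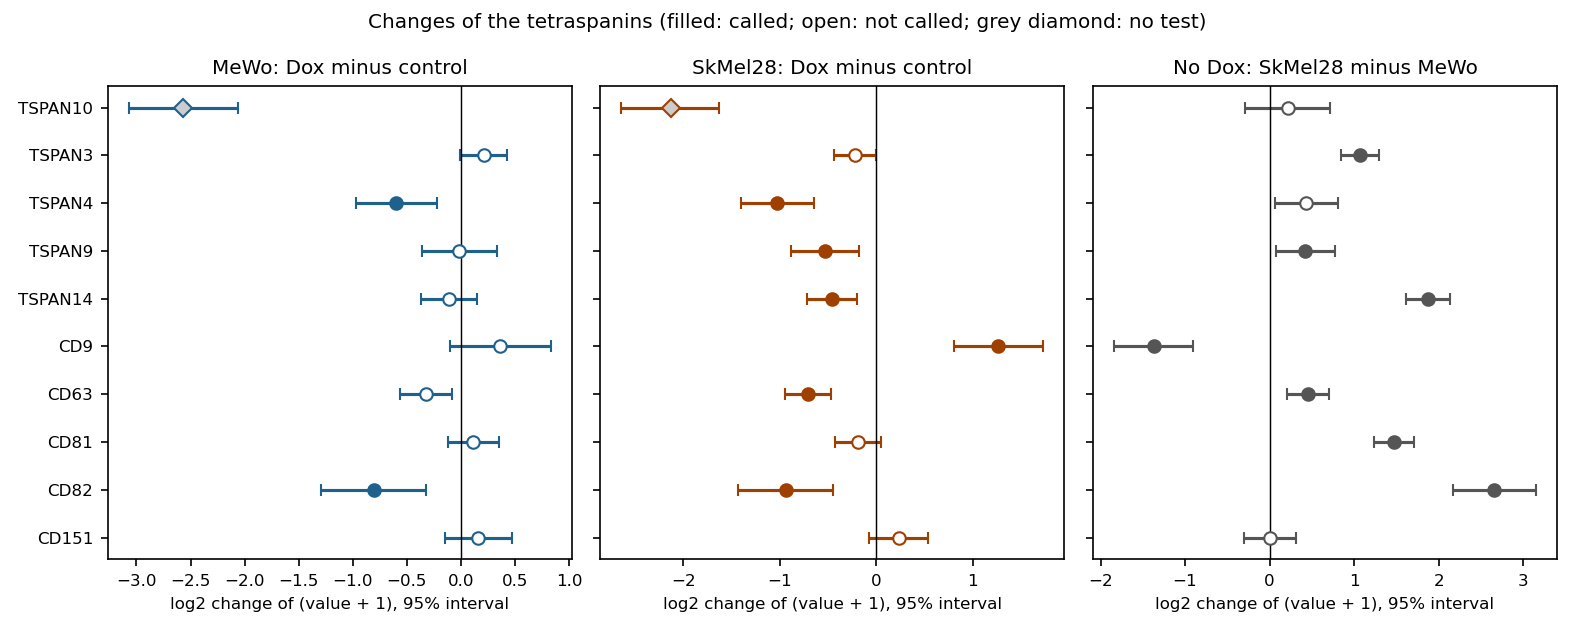
Differences in log2(value + 1) with 95% intervals for the 10 tetraspanins: Dox minus control in MeWo, the same in SkMel28, and SkMel28 minus MeWo without Dox. Filled circles passed a limma adjusted p of 0.05, open circles did not, and grey diamonds were not tested. TSPAN10 sits at -2.57 and -2.13, apart from the other members, and CD9 in SkMel28 is the 1 filled circle to the right of 0 in the Dox panels.

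TSPAN14 is the other TspanC8 tetraspanin of the list and is known to carry ADAM10 to the cell surface. It lies at chr10:80454265-80533124 on the plus strand. Its values were 70.84, 74.99 and 79.35 in MeWo control and 61.0, 78.5 and 70.1 in MeWo Dox, overlapping, and the change was -0.11 (SE 0.12, limma adjusted p = 0.597). In SkMel28 control they were 283.7, 305.6 and 246.0 and in SkMel28 Dox 206.3, 190.2 and 208.5, every Dox library below every control library. The SkMel28 change was -0.46 (SE 0.12, limma adjusted p = 0.0226), 1.38-fold lower. That call was lost without either of SkMel28 control replicates 1 and 2 or SkMel28 Dox replicates 1 and 2, where adjusted p ran from 0.0636 to 0.109, and also with spike-in scaling and without the mean-variance trend. No call was made for TSPAN14 in MeWo, and its interval there ran from -0.37 to 0.15.

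ADAM10, the protease that the TspanC8 proteins escort, read 137.6, 159.7 and 185.9 in MeWo control and 169.8, 85.7 and 140.2 in MeWo Dox. It read 53.2, 55.2 and 54.4 in SkMel28 control and 78.1, 71.9 and 55.6 in SkMel28 Dox. Neither change passed the test (-0.33, limma adjusted p = 0.276, and 0.32, adjusted p = 0.364), and the MeWo groups overlapped. Without MeWo Dox replicate 1, the highest of its group, the MeWo change of ADAM10 was -0.54 and passed (adjusted p = 0.0266). Of the 19 genes of the TspanC8, ADAM protease, Notch and cadherin list, TSPAN10 and TSPAN14 included, 18 were measured. Without TSPAN10, which was chosen for its fall, 17 were left, of which 2 were called higher and 2 lower in each line, beside 16.7% of all genes called in MeWo and 10.9% in SkMel28. The median over the 17 was -0.09 in MeWo and 0.14 in SkMel28. Without MeWo Dox replicate 1 the share of all genes called in MeWo was 31.0%, and of the 17 genes 1 was called higher and 5 lower. CDH2, N-cadherin and a known ADAM10 substrate, rose in both lines, from 30.2 to 112.7 in MeWo (log2 change 1.79, limma adjusted p = 3.44e-05) and from 13.0 to 50.4 in SkMel28 (1.88, adjusted p = 3.39e-05). NOTCH1, a receptor that ADAM10 cleaves after ligand binding, rose from 10.0 to 18.3 in MeWo (0.80, adjusted p = 0.0331, and 0.76, adjusted p = 0.0537, without MeWo Dox replicate 1) and went from 0.816 to 2.06 in SkMel28 (0.77, adjusted p = 0.0534). Its SkMel28 values came from 1 to 8 reads per library. DLL3, an inhibitory Notch ligand, fell from 120.0 to 52.7 in MeWo (-1.18, adjusted p = 6.42e-06) and read 88.3 and 86.6 in SkMel28 (-0.02, adjusted p = 0.946). BACE2, the protease that cuts PMEL in melanosomes, fell in MeWo from 802.9 to 545.8 (-0.63, adjusted p = 0.0295) with overlapping groups. Its MeWo Dox replicate 1 read 799.9 and the other 2 read 393.8 and 443.7, and without that replicate the change was -0.94 (adjusted p = 2.73e-06), while in SkMel28 its change was -0.04 (adjusted p = 0.933). The difference between the lines passed for DLL3 (-1.16, limma adjusted p = 0.00135). For BACE2 it did not pass (-0.59, adjusted p = 0.178), but did without MeWo Dox replicate 1 (-0.9, adjusted p = 0.000207).

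CD63, the late endosomal and melanosomal tetraspanin, lies at chr12:55725323-55729707 on the minus strand. Among all genes its mean ranked 8 from the top in MeWo control, 10 in MeWo Dox, 1 in SkMel28 control and 5 in SkMel28 Dox, on 3′ reads that are not scaled by length. It took 1.04 to 1.13% of the gene reads of MeWo control libraries and 0.824 to 0.847% of those of MeWo Dox. In SkMel28 it took 1.51 to 1.74% without Dox and 0.977 to 1.03% with Dox. CD63 values were 13810, 13270 and 15870 in SkMel28 control and 8280, 8802 and 9131 in SkMel28 Dox. No Dox library reached a control library, and the SkMel28 change was -0.71 (SE 0.12, limma adjusted p = 0.000534), 1.64-fold lower. That call was kept in all 22 alternatives. In MeWo the values were 11060, 10370 and 9812 without Dox and 8012, 8694 and 8293 with Dox. These groups did not overlap either, but the change of -0.32 (SE 0.12, limma adjusted p = 0.067) did not pass. With all 12 libraries it passed in edgeR, in DESeq2 and with upper-quartile scaling. Separately, it passed in limma without MeWo Dox replicate 1 (-0.29, adjusted p = 0.0326). Scaled to the spike-ins, a setting under which the median gene moved by 0.224 in MeWo, the MeWo change of CD63 was as small as -0.05.

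The 16 genes of the CD63 cargo and late endosome list were all measured, and 3 were called higher and 6 lower in MeWo, where 16.7% of all genes were called, and 3 higher and 4 lower in SkMel28, where 10.9% were. The MeWo counts were 3 higher and 7 lower without MeWo Dox replicate 1, beside 31.0% of all genes. Their median was -0.26 in MeWo and -0.05 in SkMel28. PMEL, whose sorting in melanosomes involves CD63, fell from 7450 to 3261 in MeWo (-1.19, limma adjusted p = 4.9e-07) and from 6562 to 2569 in SkMel28 (-1.35, adjusted p = 2.73e-07). MLANA, a melanosomal membrane protein, fell from 1327 to 423.1 in MeWo (-1.65, adjusted p = 5.33e-09) and from 2540 to 1741 in SkMel28 (-0.54, adjusted p = 0.00102). TIMP1, a metalloproteinase inhibitor that binds CD63 at the cell surface, rose from 90.6 to 189.1 in MeWo (1.02, adjusted p = 0.000492) and from 183.1 to 267.3 in SkMel28 (0.56, adjusted p = 0.0458). SCARB2, the lysosomal membrane protein LIMP2, rose by 0.91 in both lines (adjusted p = 1.14e-05 and 1.9e-05). LAMP2, another lysosomal membrane protein, fell in MeWo (-0.79, adjusted p = 9.74e-05) and in SkMel28 its change was -0.02 (adjusted p = 0.944). The lipid carrier APOE, which is loaded onto melanosomal vesicles with CD63, changed by -0.05 in MeWo (adjusted p = 0.858) and fell by 0.73 in SkMel28 (adjusted p = 0.00339). The difference between the lines passed for MLANA (-1.1, limma adjusted p = 0.000141) and LAMP2 (-0.77, adjusted p = 0.00812). It did not pass for PMEL, TIMP1 or SCARB2 (adjusted p of 0.249 to 0.985). For APOE it did not pass (0.68, adjusted p = 0.0586), but did without MeWo Dox replicate 1 (0.62, adjusted p = 0.0355).

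SDCBP encodes syntenin, an adaptor that binds CD63 and syndecans and links them to ALIX in the making of exosomes. It read 1194, 1178 and 1156 in MeWo control and 663.0, 272.1 and 283.5 in MeWo Dox, where replicate 1 stood well above the other 2. The MeWo change was -1.66 (limma adjusted p = 6.57e-05), and -2.08 (adjusted p = 5.39e-11) without replicate 1. In SkMel28 it read 2355, 1841 and 2406 without Dox and 1358, 1332 and 1283 with Dox, lower in all 3 Dox libraries, and its change of -0.72 did not pass (adjusted p = 0.0513). The difference between the lines did not pass (-0.94, adjusted p = 0.0829), but did without MeWo Dox replicate 1 (-1.36, adjusted p = 2.43e-06). Of 27 ESCRT, syntenin and vesicle genes 26 were measured, and 2 were called higher and 3 lower in MeWo and 3 higher and 1 lower in SkMel28, shares close to those of all genes (16.7% and 10.9%). In MeWo 4 were called higher and 7 lower without MeWo Dox replicate 1, beside 31.0% of all genes. RAB27A, the GTPase that docks melanosomes and CD63-bearing compartments at the cell periphery, fell from 166.7 to 60.4 in MeWo (-1.47, limma adjusted p = 9.53e-07) and from 238.7 to 67.6 in SkMel28 (-1.80, adjusted p = 2.5e-07). ANXA2, a membrane-binding annexin common in exosomes, changed by -0.31 in MeWo (adjusted p = 0.183, and -0.52, adjusted p = 0.00238, without MeWo Dox replicate 1) and rose by 1.07 in SkMel28 (adjusted p = 0.00018), and this difference between the lines passed the test (-1.38, adjusted p = 0.0013). The syndecan SDC3 rose by 0.61 in MeWo (adjusted p = 0.00633) and the syndecan SDC4 rose by 0.70 in SkMel28 (adjusted p = 0.0336). FLOT2, a lipid raft protein, changed by 0.41 in MeWo (adjusted p = 0.0854) and rose by 0.59 in SkMel28 (adjusted p = 0.0217). The median change of the vesicle list was 0.04 in MeWo and -0.01 in SkMel28.

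CD9 and CD81 are close relatives that bind the immunoglobulin superfamily proteins EWI-2 and EWI-F, and CD9 is a common marker of extracellular vesicles. CD9 lies at chr12:6199715-6238271 and CD81 at chr11:2376177-2397802, both on the plus strand. CD9 read 73.2, 123.1 and 107.7 in SkMel28 control and 285.9, 274.7 and 174.4 in SkMel28 Dox. All 3 Dox libraries were above all 3 control libraries, with a change of 1.26 (SE 0.22, limma adjusted p = 0.000952), 2.42-fold higher. This was the only call toward higher values among the 9 members in this fit, and it was kept in all 22 alternatives. In MeWo, CD9 read 273.8, 241.7 and 260.4 without Dox and 352.4, 238.0 and 438.3 with Dox. MeWo Dox replicate 2 lay below the control libraries while the other 2 lay above them, and the change of 0.36 (SE 0.22, adjusted p = 0.282) did not pass. CD81 values were 325.4, 304.6 and 332.6 in MeWo control and 406.0, 329.7 and 311.9 in MeWo Dox. In SkMel28 they were 914.9, 837.1 and 924.7 without Dox and 731.5, 774.4 and 841.3 with Dox. CD81 overlapped between Dox and control in both lines, and its changes were 0.11 (adjusted p = 0.536) and -0.19 (adjusted p = 0.332). The 95% intervals for CD81 were -0.12 to 0.35 in MeWo and -0.43 to 0.05 in SkMel28.

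**Figure D3:**
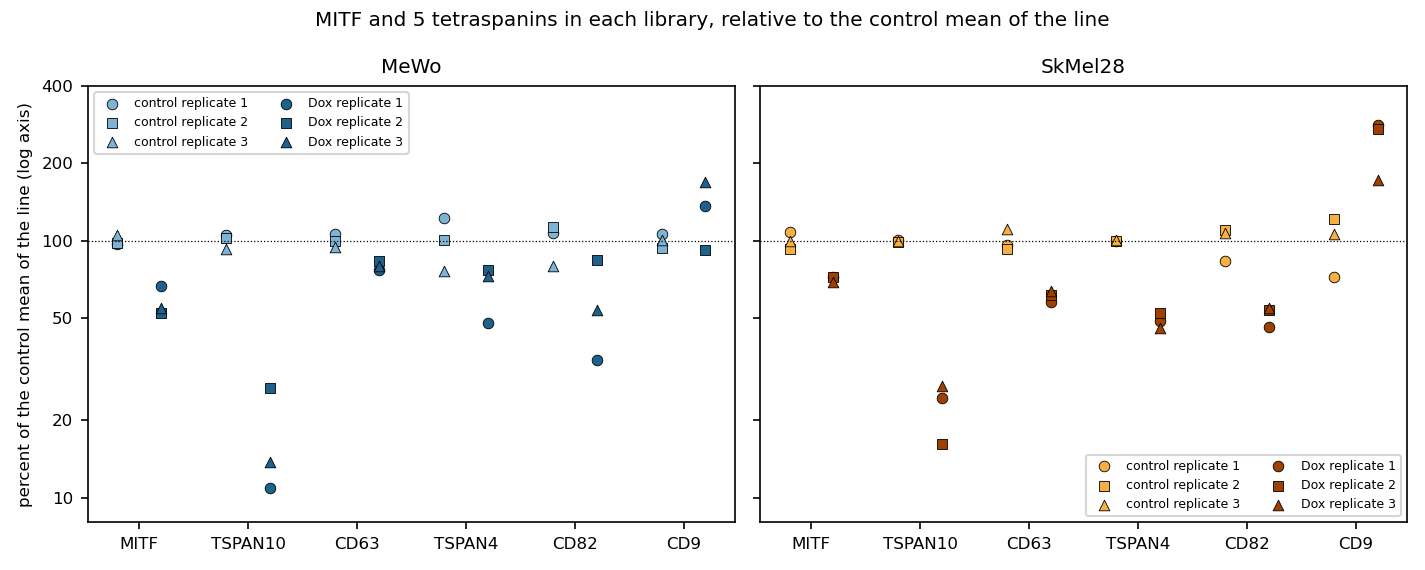
Each library as a percentage of the mean of the control libraries of its line (log axis), for MITF and 5 tetraspanins. Marker shapes give the replicate number and dark markers are Dox libraries. In MeWo, Dox replicate 1 kept 66.7% of the control MITF and 10.9% of the control TSPAN10, while Dox replicate 2 kept 52.4% and 26.6%.

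CD151 and CD82 act with integrins at the cell surface: CD151 binds the laminin receptors that contain integrin alpha 3 or alpha 6 tightly, and CD82 (KAI1) is known as a suppressor of metastasis that dampens integrin and growth factor signalling. CD82 lies at chr11:44564427-44620358 and CD151 at chr11:832887-839831, both on the plus strand. CD82 read 87.7, 114.9 and 111.9 in SkMel28 control and 48.4, 56.5 and 57.1 in SkMel28 Dox, with no overlap. The change was -0.94 (SE 0.23, limma adjusted p = 0.0138), 1.94-fold lower, and it did not pass without SkMel28 control replicate 2 (adjusted p = 0.0602), without SkMel28 control replicate 3 (adjusted p = 0.0675) or without SkMel28 Dox replicate 1 (adjusted p = 0.0698). In MeWo, where CD82 was low, it read 17.0, 17.9 and 12.6 without Dox and 5.43, 13.3 and 8.47 with Dox. The MeWo groups overlapped, since Dox replicate 2 was above control replicate 3. The MeWo change was -0.80 (SE 0.23, adjusted p = 0.0245), and it was -0.52 (adjusted p = 0.0491) without MeWo Dox replicate 1. The MeWo call was lost without MeWo control replicate 1, without MeWo control replicate 2 and without MeWo Dox replicate 3 (adjusted p of 0.0652 to 0.107), and with spike-in scaling, without the mean-variance trend and with MeWo fitted alone.

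CD151 did not pass in either line. It read 66.2, 73.4 and 60.9 in MeWo control and 80.1, 83.4 and 61.6 in MeWo Dox, a change of 0.16 (interval -0.15 to 0.47, limma adjusted p = 0.507). It read 68.2, 58.1 and 75.5 in SkMel28 control and 71.5, 80.2 and 84.0 in SkMel28 Dox, a change of 0.23 (interval -0.08 to 0.54, adjusted p = 0.383). Dox and control libraries overlapped in both lines. POLR2L, a small subunit of RNA polymerases, lies on the opposite strand across all 699 bases of the last exon of the canonical CD151 transcript. The counting strand is not stated. The 2 annotated POLR2L transcripts have no exon bases there, and their nearest 3′ end lies 777 bases outside that exon. Whether POLR2L reads were counted for CD151 was not tested. POLR2L changed by 0.06 in MeWo (adjusted p = 0.831) and fell by 0.71 in SkMel28 (adjusted p = 0.00681).

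Of 20 surface partners of these tetraspanins 19 were measured, and 3 were called higher and 4 lower in MeWo and 8 higher and 4 lower in SkMel28, beside 16.7% and 10.9% of all genes, with medians of 0.08 and 0.11. Leaving out MeWo Dox replicate 1 gave 4 higher and 5 lower in MeWo, beside 31.0% of all genes. ITGA6, the laminin-binding integrin chain that pairs with CD151, rose from 31.6 to 69.9 in MeWo (1.12, limma adjusted p = 9.36e-06) and from 171.8 to 439.3 in SkMel28 (1.35, adjusted p = 2.56e-06). ITGA4, an integrin chain that binds VCAM1 and fibronectin, rose from 1.95 to 40.0 in MeWo (3.78, adjusted p = 1.1e-08) and from 6.25 to 13.6 in SkMel28 (0.99, adjusted p = 0.0129). ITGA7, another laminin-binding chain, changed by 0.11 in MeWo (adjusted p = 0.722) and fell from 54.0 to 21.2 in SkMel28 (-1.30, adjusted p = 6.96e-05). The difference between the lines passed for ITGA4 (2.79, adjusted p = 0.000141) and ITGA7 (1.4, adjusted p = 0.00213). For ITGA6 it did not pass (-0.23, adjusted p = 0.444). HBEGF, a growth factor precursor that CD9 binds, changed by 0.29 in MeWo (adjusted p = 0.52) and rose from 7.78 to 25.8 in SkMel28 (1.61, adjusted p = 0.000884). Its difference between the lines did not pass (-1.32, adjusted p = 0.0504), but did without MeWo Dox replicate 1 (-1.35, adjusted p = 0.0222). TFRC, the transferrin receptor and a CD81 partner, fell in MeWo (-1.04, adjusted p = 0.00239) and rose in SkMel28 (0.90, adjusted p = 0.00967), and that difference passed the test (adjusted p = 0.00107). CDH1, E-cadherin, fell in MeWo (-1.02, adjusted p = 0.0151) and in SkMel28 (-1.25, adjusted p = 0.0052), where it was at 4.46 without Dox. Named after their values were seen, IGSF8 (EWI-2, a direct partner of CD9 and CD81) fell by 0.71 in MeWo (adjusted p = 0.0243) and by 0.97 in SkMel28 (adjusted p = 0.0045), and ITGB1, the beta chain of these integrins, rose by 0.73 and 0.75 (adjusted p = 0.0151 and 0.0164). PTGFRN (EWI-F) passed in neither line (-0.13 in MeWo, adjusted p = 0.608, and -0.03 in SkMel28, adjusted p = 0.931). ITGA3, integrin alpha 3, also passed in neither (0.11, adjusted p = 0.852, and 0.75, adjusted p = 0.143). IGSF8 read 67.0 in MeWo Dox replicate 1 and 31.5 and 35.2 in the other 2 MeWo Dox libraries, and without replicate 1 its MeWo change was -1.04 (adjusted p = 7.35e-06).

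**Figure D4:**
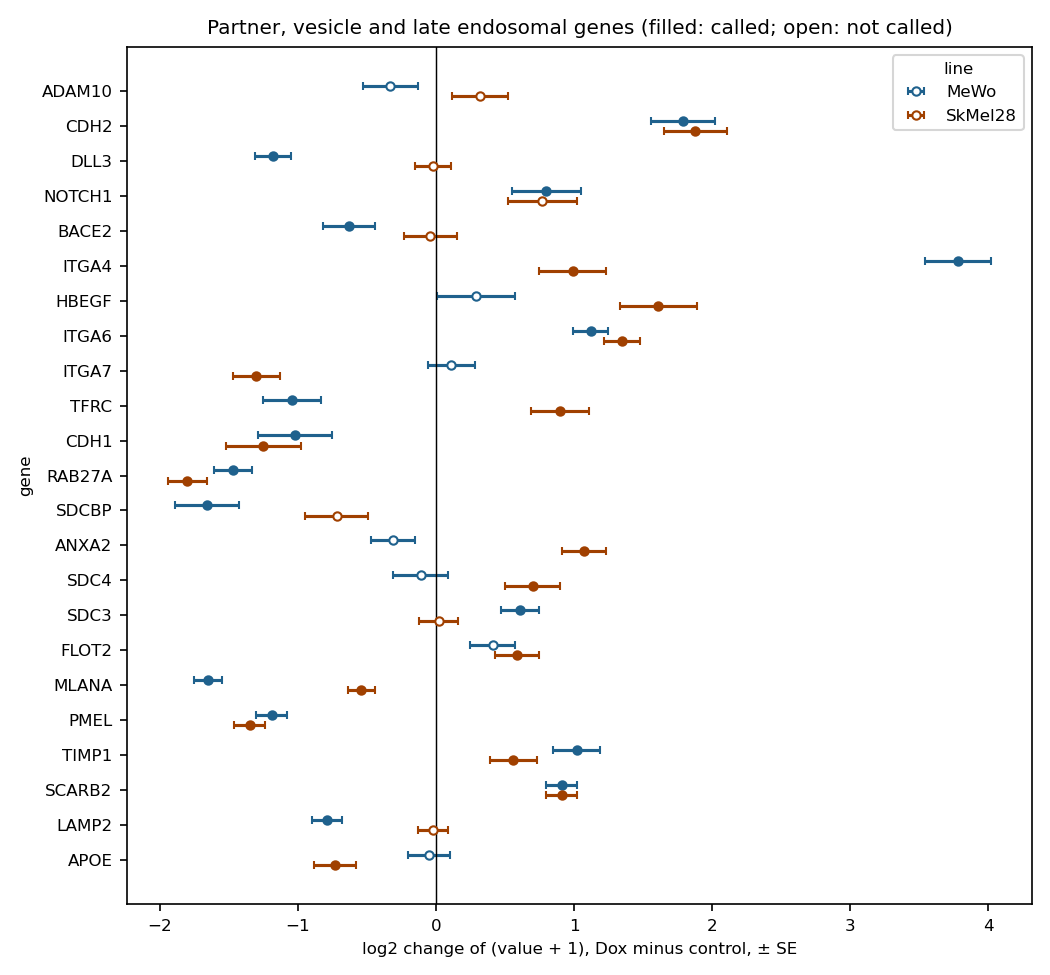
Log2 changes with Dox (± SE) of partner, vesicle and late endosomal genes in MeWo and SkMel28. Filled circles passed a limma adjusted p of 0.05 in that line and open circles did not. RAB27A and PMEL fell and ITGA6 and CDH2 rose in both lines, while ADAM10 passed in neither with all 12 libraries.

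TSPAN4, TSPAN9 and TSPAN3 have less settled roles, and TSPAN4 is known as a marker of migrasomes, vesicles left on the retraction fibres of moving cells. TSPAN4 lies at chr11:842812-867116 and TSPAN9 at chr12:3077355-3286564 on the plus strand, and TSPAN3 at chr15:77041404-77083984 on the minus strand. TSPAN4 read 128.1, 127.9 and 129.9 in SkMel28 control and 62.3, 67.2 and 58.6 in SkMel28 Dox, a gap far wider than the spread of either group. The SkMel28 change was -1.03 (SE 0.18, limma adjusted p = 0.000922), 2.05-fold lower, and was kept in all 22 alternatives. In MeWo, TSPAN4 read 118.3, 97.9 and 73.8 without Dox and 46.3, 74.7 and 70.5 with Dox. Dox replicate 2 was just above control replicate 3, and the change was -0.60 (SE 0.18, adjusted p = 0.0291). Without MeWo Dox replicate 1, the lowest of the 6, it was -0.38 (adjusted p = 0.0569), and the call was also lost without MeWo control replicate 1 (-0.44, adjusted p = 0.142) or replicate 2 (-0.57, adjusted p = 0.1), with spike-in scaling, without the mean-variance trend and with MeWo fitted alone.

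TSPAN9, described in platelets and in endosomal traffic, read 31.5, 31.7 and 33.3 in SkMel28 control and 19.9, 21.1 and 25.4 in SkMel28 Dox. The groups did not overlap, but the call (-0.53, SE 0.17, limma adjusted p = 0.0483) was lost in 13 of 22 alternatives, among them DESeq2 (adjusted p = 0.0654) and the omission of any one library of the line except SkMel28 Dox replicate 3. The highest of these adjusted p values was 0.185. In MeWo it read 24.5, 24.1 and 22.7 without Dox and 23.3, 27.67 and 19.98 with Dox, and overlapped (-0.02, interval -0.36 to 0.33, adjusted p = 0.97). TSPAN3, found in lysosomal and endosomal membranes, read 360.2, 323.6 and 299.3 in MeWo control and 365.5, 358.9 and 409.1 in MeWo Dox. In SkMel28 it read 647.6, 692.7 and 721.6 without Dox and 604.7, 597.9 and 566.0 with Dox. Its small changes, 0.21 (adjusted p = 0.191) and -0.22 (adjusted p = 0.21), had opposite signs and did not pass.

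The difference between the lines in the Dox change was then tested directly. None of the 9 members were called in limma, where 7.09% of all genes were called. TSPAN3, TSPAN9, CD9 and CD63, 4 of 9, had an unadjusted p under 0.05 in limma and in edgeR, which also called 0 after adjustment, while DESeq2 had 3 unadjusted and called 1, TSPAN3 (0.45, adjusted p = 0.0492). For CD9 the MeWo change minus the SkMel28 change was -0.90 (SE 0.31, limma adjusted p = 0.0833), for TSPAN3 it was 0.43 (SE 0.15, adjusted p = 0.0835), and for CD63 it was 0.39 (SE 0.16, adjusted p = 0.147). Without MeWo Dox replicate 1, 5 of 9 were called: TSPAN3 (0.45, adjusted p = 0.018), TSPAN4 (0.64, adjusted p = 0.0242), TSPAN14 (0.44, adjusted p = 0.0393), CD63 (0.42, adjusted p = 0.03) and CD9 (-0.94, adjusted p = 0.0317). That setting called 3115 of all 12616 genes, in place of 894 with all libraries. Without SkMel28 Dox replicate 3, the library with the least CD9 of its group, 1 was called, CD9 (-1.13, adjusted p = 0.0368), beside 748 of all genes. With all 12 libraries in limma a difference between the lines was therefore not shown for any tested member. The smallest differences were those of CD151 (-0.07, interval -0.51 to 0.37, adjusted p = 0.864) and CD82 (0.13, interval -0.56 to 0.83, adjusted p = 0.833).

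Without Dox the lines differed in most of these genes, and 7 of all 10 members were called, 6 higher in SkMel28 and 1 lower, where 51.4% of all genes were called. The labels name EMEM as the medium of MeWo and RPMI as that of SkMel28, so line and medium cannot be told apart. The widest difference was that of CD82, 15.8 ± 2.81 in MeWo and 104.8 ± 14.9 in SkMel28 (SD, n = 3 each), a log2 difference of 2.66 (SE 0.23, limma adjusted p = 4.54e-08). TSPAN14 was 75.1 ± 4.26 and 278.4 ± 30.1 (1.87, adjusted p = 1.12e-09), CD81 was 320.9 ± 14.5 and 892.2 ± 48.0 (1.47, adjusted p = 7.97e-09), and TSPAN3 was 327.7 ± 30.7 and 687.3 ± 37.3 (1.07, adjusted p = 1.8e-07). CD63 was higher in SkMel28 by 0.46 (adjusted p = 0.00316) and TSPAN9 by 0.42 (adjusted p = 0.0403), the latter lost in 9 of 21 alternatives. CD9 was the member that went the other way, at 258.6 ± 16.2 in MeWo and 101.3 ± 25.5 in SkMel28 (-1.37, adjusted p = 5.31e-05). With Dox, CD9 in SkMel28 averaged 245.0, near its MeWo control level. TSPAN10, TSPAN4 (0.43, adjusted p = 0.0502) and CD151 (0.00, interval -0.30 to 0.31, adjusted p = 0.981) did not pass. The spread between replicates of the members was a median coefficient of variation of 6.43% in MeWo control, 16.0% in MeWo Dox, 7.50% in SkMel28 control and 7.60% in SkMel28 Dox, with TSPAN10 the most variable in both Dox groups, at 49.1% and 25.5%.

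Of 23 other human tetraspanins looked for, 10 were measured, and 1 was called with Dox in each line, beside 16.7% of all genes called in MeWo and 10.9% in SkMel28. In MeWo 2 of the 10 were called without MeWo Dox replicate 1, beside 31.0% of all genes. TSPAN7 and TSPAN15 were named after their values were seen. TSPAN7 read 0.288, 0.389 and 2.59 in MeWo control and 2.55, 3.79 and 5.42 in MeWo Dox (log2 change 1.36, limma adjusted p = 0.00684), values of 1 to 16 reads that overlapped, and it averaged 54.1 in SkMel28 control and 79.0 in SkMel28 Dox (0.54, adjusted p = 0.335). TSPAN15, a TspanC8 tetraspanin known to direct ADAM10 to N-cadherin, read 0.278, 1.27 and 0 in SkMel28 control and 4.16, 3.01 and 4.23 in SkMel28 Dox (1.74, adjusted p = 0.00143), again from at most 14 reads. In MeWo, TSPAN15 averaged 6.11 without Dox and 11.9 with Dox (0.82, adjusted p = 0.0863). The remaining TspanC8 members TSPAN5, TSPAN17 and TSPAN33 were not called in either line. No difference between the lines was called among the 10, where 7.09% of all genes were called.

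The genes whose pattern over the 12 libraries was most like that of TSPAN10, among 8072 genes averaging 10 or more, were GSTO1 (Pearson r of 0.982), AHCYL1 (0.966), SERPINF1 (0.964), EI24 (0.956) and RGS12 (0.954). GSTO1, a glutathione transferase, averaged 957.0 and 393.8 in MeWo without and with Dox and 1061.1 and 427.1 in SkMel28. SERPINF1, the secreted factor PEDF, averaged 22.8 and 3.90 in MeWo and 23.0 and 8.20 in SkMel28. Like TSPAN10, these genes were close between the lines without Dox and low with Dox. Among the members, TSPAN4 (0.87) and CD63 (0.84) had the highest r with TSPAN10, MITF itself had 0.84, and CD9 had the lowest (-0.68). The libraries fall into Dox and control groups and share their scaling, so these values describe the pattern and carry no test.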

How the data were processed

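The 12 libraries of MeWo and SkMel28 (3 per line and Dox dose) were read from the 3′ end after preparation with the QuantSeq Forward kit. The authors deposited a normalised signal, reads per gene divided by an edgeR effective library size and rescaled by 1 constant, so whole reads could be recovered for 100% of values (tolerance 0.001 of a read). The submitters' processing notes name FastQC 0.11.7, cutadapt 2.8, STAR 2.5.1b, edgeR and hg38. The counting tool, annotation and strand are not given in the sources used here.

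After 67 spike-ins were set aside (5.69 to 8.55% of reads), 12616 genes were fitted with limma 3.58.1 (R 4.3.3) on log2(value + 1) with a mean-variance trend, 4 group means and 12 libraries. Fold changes on this scale understate those of low genes. P-values were two-sided and Benjamini-Hochberg adjusted over all genes, and called means an adjusted p under 0.05. Intervals are 95%, unadjusted, and a fold change printed beside a log2 change is the ratio of group means. Alternatives were edgeR 4.0.16 and DESeq2 1.42.0 on recovered reads, pseudocounts of 0.1 and 5, upper-quartile and spike-in scaling, genes kept only with 5 or more in 3 or more libraries, no trend, a replicate block, each line alone, and leaving out each library. Leaving out libraries of the other line, and leaving out MeWo Dox replicate 1 for the gene lists, were added after seeing the data.

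The members and lists were chosen with earlier results of these data known. Every member was named. Other list genes were named if called with Dox in a line at 1.5-fold or more and averaging 10 or more in either group, at most 6 per list, plus ADAM10 and SDCBP. The 5 genes most correlated with TSPAN10 were named. The main fit did not pair libraries by replicate number. Correlations of same-numbered deviations ran from -0.305 to 0.289, and groups of 3 cannot settle whether same-numbered libraries shared a batch. Promoter windows and gene positions came from RefSeq and GENCODE 44, read with Python 3.11.15.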

Additional observations from a re-analysis of the deposited data

How the results depend on the processing

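The falls of TSPAN10 lay between -2.92 and -2.28 in MeWo, and between -2.28 and -1.92 in SkMel28, over 22 alternatives each, without a change of direction. The MeWo count of 2 called members was 1 with spike-in scaling, 0 without the mean-variance trend, 0 with each line fitted alone, and 0 to 2 when single libraries were left out. In the same order, 2480, 1689, 813 and 1281 to 3913 of all genes were called, in place of 2107. The SkMel28 count of 6 ranged from 3 to 6 when single libraries were left out, and was 4 with spike-in scaling, 4 without the mean-variance trend, 5 in DESeq2 and 5 with upper-quartile scaling. In the same order, 784 to 2042, 927, 1103, 1298 and 1377 of all genes were called, in place of 1378. The count for the difference between the lines, 0, was 1 in DESeq2, 1 with spike-in scaling, and 0 to 5 when single libraries were left out. In the same order, 983, 1519 and 449 to 3115 of all genes were called, in place of 894. The count between the control groups, 7, ranged from 6 to 8 when single libraries were left out, beside 5685 to 7145 of all genes, in place of 6485. With the replicate block the counts were 2 in MeWo, 5 in SkMel28, 0 for the difference and 6 between the control groups. Beside them, 1980, 1191, 820 and 6371 of all genes were called. TSPAN9 in SkMel28 (-0.53) and TSPAN9 between the lines (0.42) were no longer called.

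Among single genes with a test, 719 alternative values kept direction and side of the threshold, 43 lost a call, 19 gained one and 14 changed sign, the last all near 0 and never called. The sign changes were in TSPAN9 in MeWo (0.00 in DESeq2, 0.24 with spike-in scaling, -0.13 to 0.09 when single libraries were left out), TSPAN14 in MeWo (0.16 with spike-in scaling), the line difference of the Dox change of CD82 (-0.16 to 0.42 when single libraries were left out) and of CD151 (0.30 with spike-in scaling, -0.16 to 0.06 when single libraries were left out), and CD151 between the control groups (-0.01 with upper-quartile scaling, -0.08 to 0.10 when single libraries were left out). With spike-in scaling the median of all genes was 0.224 in MeWo, -0.079 in SkMel28 and 0.296 in their difference. The cause was not tested. Values of few reads (CD82 and TSPAN7 in MeWo, ITGA4 in MeWo control, TSPAN15, and NOTCH1 and CDH1 in SkMel28) limit what small changes could be seen.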
